A study of Mus musculus with 16 samples.

Results

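Small nucleolar RNA (snoRNA) host genes were described across mouse hepatocytes treated with SQ1 or pravastatin. The set was given by name and holds 9 genes, Snhg1, Snhg3, Snhg4, Snhg5, Snhg6, Snhg7, Snhg8, Snhg12 and Gas5. Probes were matched to them by RefSeq accession. Of the 9 genes, 6 had a probe (1 each), and all 6 were among the 15049 genes tested of the 20659 named genes on the array. Snhg4, Snhg8 and Gas5 were matched to no probe and were not analysed here. The set was chosen with its treated-over-control ratios for both drugs in view, so the drug values of its members are given as a description, without a test.

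A host gene of this kind carries snoRNAs in its introns. When the primary transcript is spliced, the introns yield snoRNAs that guide ribose methylation (box C/D) or pseudouridylation (box H/ACA) of ribosomal RNA. The spliced exons are left as a long non-coding RNA. Many of these spliced RNAs begin with a terminal oligopyrimidine (TOP) tract, as the messenger RNAs of ribosomal proteins do, and engage ribosomes on short reading frames. They are then degraded by nonsense-mediated decay, the pathway that removes transcripts whose translation ends too early. In work on cultured cells, host RNAs such as Gas5 accumulate when translation or growth is halted. The arrays measured the host RNA and not the mature snoRNAs.

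The study used primary cultured hepatocytes of male C57Bl/J mice in Williams Medium E. Cells had been plated for 48 h before they received SQ1 (100 µM as labelled), pravastatin (30 µM) or no treatment for another 48 h. SQ1, or squalestatin 1, inhibits squalene synthase, and pravastatin inhibits HMG-CoA reductase, an earlier step of the same mevalonate pathway. The unit of the SQ1 dose could not be checked, so the doses of the drugs cannot be placed on 1 scale. Each of the 16 arrays compared treated RNA with untreated control RNA directly, and 8 of them were for each drug. RNA of treated cells carried the red dye for replicates 1 to 4 and the green dye for replicates 5 to 8 of each drug. The design text gives 8 control replicates, the control RNAs are numbered alike for both drugs, and the drug comparisons are therefore taken to share control cultures. SQ1 lay on slides 1 and 2 and pravastatin on slides 3 and 4, with 4 arrays each.

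RefSeq (build GRCm38.p6) places 8 snoRNA genes inside Snhg1, among them Snord22. It places 4 inside Snhg12 (Snora16a, Snora44, Snora61 and Snord99), 2 inside Snhg3 (Snora73a and Snora73b), 2 inside Snhg7 (Snora17 and Snora43), 2 inside Snhg5 and 1 inside Snhg6 (Snord87). The set thus holds hosts of both snoRNA classes, and all 9 genes are annotated as long non-coding RNA.

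The annotated starts of 5 measured hosts are shown because the set is defined by its TOP tracts. Each stretch runs 5′ to 3′ on the strand of the gene, from 40 bases before the annotated start to the fortieth base from it, after RefSeq build GRCm38.p6. Capitals mark the longest run of at least 5 C or T letters that begins with C within 10 bases of the start. Snhg6 is named only. The stretches lie at chr4:132308638-132308717 (Snhg12, plus strand), chr19:8723447-8723526 (Snhg1, plus strand), chr9:88522858-88522937 (Snhg5, minus strand), chr2:26640205-26640284 (Snhg7, minus strand) and chr4:132353647-132353726 (Snhg3, minus strand).
Snhg12: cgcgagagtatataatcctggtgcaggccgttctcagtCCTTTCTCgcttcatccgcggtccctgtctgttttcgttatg
Snhg1: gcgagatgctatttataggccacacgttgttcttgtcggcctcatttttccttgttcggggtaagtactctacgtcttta
Snhg5: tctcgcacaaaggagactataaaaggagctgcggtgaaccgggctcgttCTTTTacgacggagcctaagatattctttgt
Snhg7: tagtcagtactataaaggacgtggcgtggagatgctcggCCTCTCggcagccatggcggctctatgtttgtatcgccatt
Snhg3: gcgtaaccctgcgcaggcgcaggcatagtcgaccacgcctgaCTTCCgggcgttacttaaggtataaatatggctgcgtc

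Such a run lay in the window of 4 of the 5 hosts, Snhg1 being without one. The same search on the strand of the gene found a run in 9513 of 32851 promoters of the RefSeq table (29.0%) and in 34 of 68 promoters of cytosolic ribosomal protein genes. A stricter form, with C as the annotated first base and at least 4 more C or T letters after it, held for 1 host (Snhg7), for 2.5% of all promoters and for 20.6% of the ribosomal protein promoters. The letters TATAAA, the core of a TATA box, lay between 40 and 16 bases before the start of Snhg5 and Snhg7, and on the other strand of that window in Snhg1, 3 of 5 hosts in all. They were in that window of 2.0% of all promoters (2.5% on either strand) and of 0 of the 68 ribosomal protein promoters. That window does not overlap the one searched for pyrimidine runs. These matches describe letters at an annotated start, which can differ from the start used in hepatocytes.

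The scale used throughout is the log2 ratio of treated over control RNA on 1 array, with the gene's dye effect removed. Over the 15049 genes, the median ratio was -0.0024 for SQ1 and -0.0117 for pravastatin, and the median standard error of the fit was 0.0399 for each. On the 16 arrays, 58.9% to 66.0% of probes were well above background in the treated channel and 59.4% to 68.0% in the control channel. The number of arrays limits the precision. The limma test, with Benjamini-Hochberg adjustment and a threshold of 0.05, called 4858 genes for SQ1 and 10039 for pravastatin. Of these calls, 48.7% for SQ1 and 46.3% for pravastatin were higher, against 71.1% and 61% with median centring in place of loess, and 54.1% and 56.8% from the Agilent processed signals. Of the 7990 genes called for SQ1 minus pravastatin, 55.1% were higher, against 44.7% from the Agilent processed signals. The design text calls the replicates biological without saying whether they were separate animals, so the p-values measure the spread between these arrays.

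After SQ1, the 6 host transcripts were all below control in the mean of 8 arrays, by 0.16 to 0.51 on the log2 scale, with a median of -0.37. Past the adjusted p of 0.05, 5 of 6 were lower and 0 were higher, where 16.5% of all genes tested were lower and 15.7% higher. The SQ1 ratios chose the members, so nothing is read from that count. It was 1 of 6 (Snhg5) with median centring, and 4 of 6 (Snhg7 no longer) with a random slide or scan-day block. Genes called for SQ1 among all those tested also fell, from 4858 to 2072 with median centring, of which 71.1% were higher. They numbered 2538 with a random slide block and 2238 with a random scan-day block. In bulk RNA, fewer cells of a type and less RNA per cell cannot be told apart.

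Snhg12, host of H/ACA snoRNAs and of Snord99, had the lowest mean with SQ1. Its ratios had a lowest value of -0.71, a median of -0.58 and a highest value of -0.16, all 8 below control. The fitted log2 ratio was -0.51 ± 0.11 (SE, n = 8), or 1.43-fold lower. Snhg1, the host of Snord22, came next with -0.58, -0.55 and -0.19 as its lowest, median and highest ratios. Its log2 ratio was -0.47 ± 0.07, or 1.39-fold lower, with 8 of 8 arrays below control. Both transcripts were further below control on slide 1 than on slide 2. Snhg12 averaged -0.68 (SD 0.036, n = 4) on slide 1 and -0.34 (SD 0.17, n = 4) on slide 2, and Snhg1 averaged -0.56 (SD 0.019) and -0.39 (SD 0.16) on the same slides.

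Snhg5 and Snhg6 gave the narrowest spread among the hosts with SQ1. Snhg5 had a lowest ratio of -0.48, a median of -0.39 and a highest of -0.28, and averaged -0.36 on slide 1 and -0.40 on slide 2. Its log2 ratio was -0.38 ± 0.04, or 1.30-fold lower. Snhg6, the host of Snord87, ran from -0.55 to -0.19 around a median of -0.36, with slide means of -0.32 and -0.41. Its log2 ratio was -0.36 ± 0.04, or 1.28-fold lower. The raw intensity of its probe was 15990 to 22612 in the SQ1 channels and 18988 to 29992 in the control channels. Neither transcript had an array at or above control.

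Snhg7 and Snhg3, both hosts of H/ACA snoRNAs, had arrays on both sides of control. The Snhg7 ratios had a lowest value of -0.66, a median of -0.45 and a highest value of 0.32. Only replicate 2 was above 0, and the other 7 lay between -0.66 and -0.30. The log2 ratio of Snhg7 was -0.37 ± 0.11, or 1.29-fold lower. Its probe had a raw intensity of 236 to 471.5 in the SQ1 channels and 282 to 601 in the control channels. Snhg3 ranged from -0.39 to 0.20 with a median of -0.21, and replicate 2 was again the array above 0. Its log2 ratio of -0.16 ± 0.07, or 1.12-fold lower, was the closest to 0 of the 6. In the order Snhg12, Snhg1, Snhg5, Snhg7, Snhg6 and Snhg3, the first 5 fitted ratios span 0.36 to 0.51 below control, and each differs from its neighbour by less than the larger of their SDs.

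With pravastatin, 5 of the 6 hosts were above control in the mean and 1 was below, with a median of 0.33. Past the adjusted p of 0.05, 4 of 6 were higher (Snhg1, Snhg5, Snhg6 and Snhg12) and 0 were lower, where 30.9% of all genes tested were higher and 35.8% lower. The pravastatin ratios also chose the members. At that threshold of 0.05, the same 4 transcripts passed under each of the 26 other settings tried. The stricter adjusted p of 0.01 was not applied to the single hosts.

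Snhg12 was again at the outer end. Its pravastatin ratios had a lowest value of -0.004, a median of 0.54 and a highest value of 1.32, with 7 of 8 arrays above control. The log2 ratio was 0.61 ± 0.11, or 1.52-fold higher. On slide 3 it averaged 0.25 (SD 0.18, n = 4) and on slide 4 0.96 (SD 0.27, n = 4), so that the 4 arrays of slide 4 were all above the 4 of slide 3. Snhg1 had a lowest ratio of -0.14, a median of 0.22 and a highest of 0.60, and 6 of 8 arrays were above control. Its log2 ratio of 0.22 ± 0.07, or 1.16-fold higher, came from a mean of 0.009 (SD 0.12) on slide 3 and 0.43 (SD 0.14) on slide 4. Within slide 3, then, Snhg1 lay at control. Slide 3 was scanned on another day than the other slides, and the part of slide and scan day in these values was not tested.

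Snhg6 and Snhg5 were above control on all 8 pravastatin arrays. Snhg6 ran from 0.36 to 0.64 around a median of 0.52, with means of 0.56 on slide 3 and 0.44 on slide 4. Its log2 ratio was 0.50 ± 0.04, or 1.42-fold higher. The raw intensity of its probe was 25823 to 47687.5 in the pravastatin channels and 17540 to 26657 in the control channels. Snhg5 ran from 0.18 to 0.60 around a median of 0.48, with a log2 ratio of 0.44 ± 0.04, or 1.36-fold higher. Its means were 0.39 on slide 3 and 0.50 on slide 4.

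Snhg7 and Snhg3 were spread around control with pravastatin. Snhg7 had a lowest ratio of -0.34, a median of 0.17 and a highest of 0.54, with 5 of 8 arrays above control and a log2 ratio of 0.12 ± 0.11. Snhg3 had -0.34, -0.06 and 0.31 as its lowest, median and highest ratios, with 4 of 8 arrays above control. Its log2 ratio was -0.05 ± 0.07, which turned to 0.085 at the highest of the other settings tried. The SDs over arrays, 0.33 for Snhg7 and 0.21 for Snhg3, were larger than their mean ratios.

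**Figure D1:**
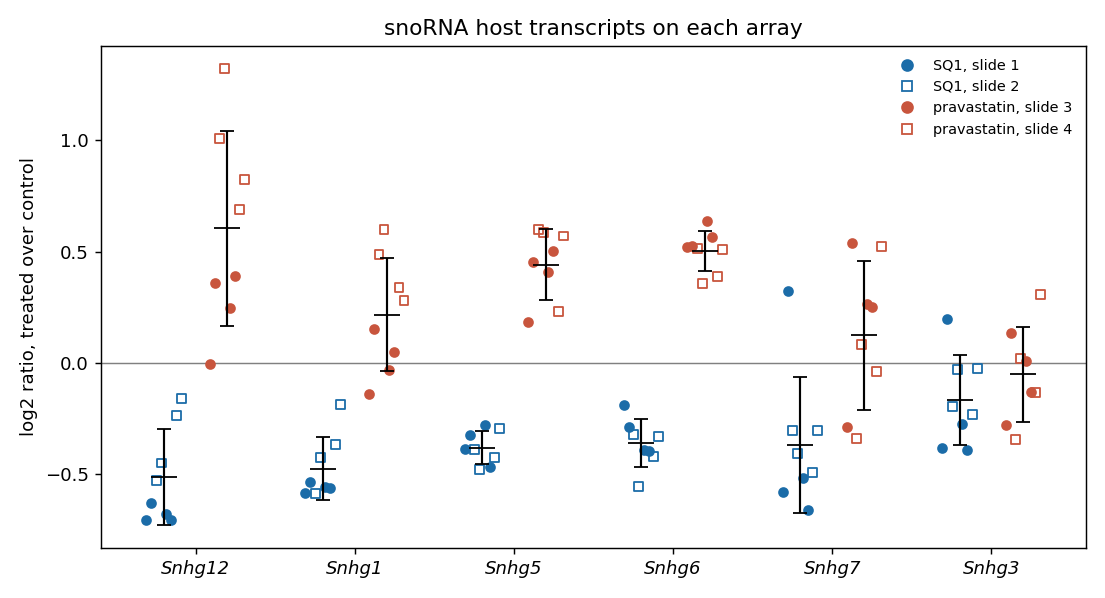
Log2 ratio of treated over control RNA (y axis) for the 6 measured host transcripts (x axis), 1 point per array, SQ1 left of pravastatin, with filled points for slides 1 and 3 and open squares for slides 2 and 4. Black bars give the mean and SD of 8 arrays. For Snhg12, Snhg1, Snhg5 and Snhg6 no SQ1 array reaches the lowest pravastatin array, while those of Snhg7 and Snhg3 overlap. Both ratios chose these genes, and the share of all genes lying apart in this way was not counted.

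Set side by side, the hosts lay lower with SQ1 than with pravastatin. The fitted difference of the log2 ratios, SQ1 minus pravastatin, was below 0 for all 6, with a median of -0.76, and 5 of 6 were past the threshold as lower, against 23.8% of all genes tested. Both contrasts chose the set, and this count too is only a description. The difference was -1.12 ± 0.16 for Snhg12, -0.86 ± 0.05 for Snhg6, -0.82 ± 0.06 for Snhg5 and -0.69 ± 0.10 for Snhg1. It was -0.49 ± 0.15 for Snhg7, which no longer passed with a random slide block, and -0.11 ± 0.10 for Snhg3. Between arrays with the same replicate number, Snhg1, Snhg5, Snhg6 and Snhg12 were lower with SQ1 in 8 of 8 pairs. Snhg7 was higher with SQ1 in 1 pair and Snhg3 in 2 pairs. The median over the 6 hosts on each array ran from -0.51 to -0.24 with SQ1 and from -0.07 to 0.52 with pravastatin. It averaged -0.44 on slide 1 and -0.36 on slide 2 with SQ1, and 0.23 on slide 3 and 0.44 on slide 4 with pravastatin. How many of all genes lie apart in this way, by pair or by range, was not counted, so nothing is read from it.

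The hosts did not vary from array to array as 1 block. After the drug and dye means were taken out, the 15 pairs of hosts had correlations over the 16 arrays between -0.52 and 0.96, with a median of 0.19, and 10 of 15 were above 0. Snhg1 and Snhg12 varied together (r = 0.96 over 16 arrays, 0.92 within SQ1 and 0.98 within pravastatin), as did Snhg3 and Snhg7 (r = 0.91, 0.90 and 0.91). With slide means also taken out, these were 0.89 and 0.95. The array that stood above control for Snhg7 with SQ1, replicate 2, was also the highest for Snhg3. Snhg3 and Snhg12 are neighbours on chromosome 4, and their correlation was 0.19. Snhg6 went against Snhg1 (r = -0.52) and Snhg12 (r = -0.49), but with slide means taken out these were -0.13 and -0.01. Arrays of a slide share processing, and those of a replicate number are taken to share control cultures. These correlations thus describe 16 arrays that cannot be taken as independent.

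**Figure D2:**
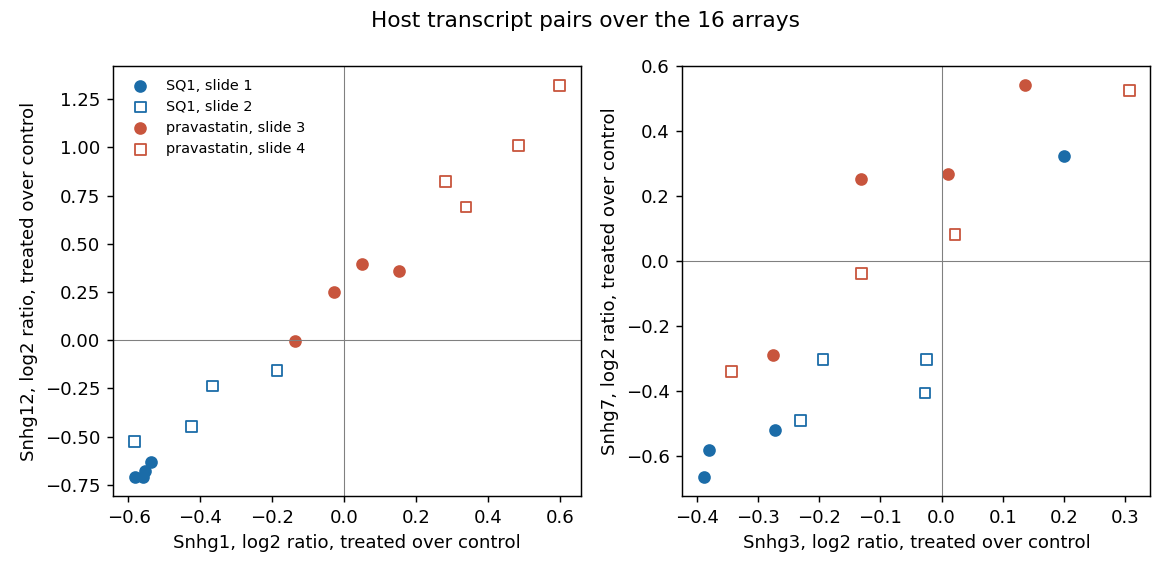
Log2 ratios of treated over control RNA on the 16 arrays for Snhg12 against Snhg1 (left) and Snhg7 against Snhg3 (right), blue for SQ1 and red for pravastatin, filled for slides 1 and 3 and open for slides 2 and 4. The arrays of Snhg1 and Snhg12 fall along 1 line through both drugs, with residual correlations of 0.96 (left pair) and 0.91 (right pair).

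The hosts were also set against all other genes. Among 14957 genes with a ratio on all 16 arrays, the one most like the mean of the 6 hosts was Trmt13, a transfer RNA methyltransferase (r = 0.98 over 16 arrays). Riok3, a kinase of the RIO family, and Rassf1, a Ras association domain protein, came next (both r = 0.98), then B3galnt2, Ifrd1, Slc25a37, Foxj3 and Rassf6 (r = 0.97 each). A high r here reflects the pattern over arrays and not the size of the ratios, which differed between these genes. That pattern takes in the gap between the drugs, whose ratios chose the hosts. Trmt13 had log2 ratios of -0.07 ± 0.03 with SQ1 and 0.49 ± 0.03 with pravastatin, and Riok3 had 0.009 ± 0.028 and 0.35 ± 0.03. Rassf1 had -0.23 ± 0.04 and 0.34 ± 0.04. With drug and dye means taken out, the genes most like the hosts were 1500015A07Rik (r = 0.94), Mfsd2b, a lipid transporter gene (0.93), 4833420G17Rik and Foxj3 (0.91 each), with Pbld1, Vmn1r65, Fam177a2 and Gm9958 at 0.90. All these genes share slides and control RNA with the hosts.

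Non-coding snoRNA hosts outside the set were fewer. Of 12 listed, 5 were measured, and with SQ1 4 were lower past the threshold and 0 higher (limma, adjusted over all genes tested). Their median was -0.17, beside -0.0024 for all genes. The counts of this list and of those that follow can be set against all-gene shares of 15.7% higher and 16.5% lower with SQ1. With pravastatin these shares are 30.9% and 35.8%. They belong to the limma fit after loess, and the calls among all genes also changed under the other settings. Snhg18 was 1.33-fold lower (log2 ratio -0.41 ± 0.04, adjusted p = 8.37e-07, 8 of 8 arrays), a call kept under each of the 26 other settings. Dancr fell by 0.30 ± 0.11 (adjusted p = 0.0455) in the limma fit, a call lost in 14 of the 26 settings. Snhg17 fell by 0.17 ± 0.03 and Snhg16 by 0.16 ± 0.05, while Snhg10, at -0.07 ± 0.04, was not past the threshold. The count lower was 1 with median centring, and 2 with a random slide or scan-day block, without SQ1 replicate 4 or without SQ1 replicate 6.

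With pravastatin, 2 of these 5 hosts were higher and 1 was lower, and their median was 0.15. Snhg16, a host of box C/D snoRNAs, was 1.53-fold higher (0.61 ± 0.05, limma adjusted p = 1.42e-08, 8 of 8 arrays). Snhg10 rose by 0.15 ± 0.04 (limma adjusted p = 0.00169). Snhg18 fell by 0.24 ± 0.04 (limma adjusted p = 3.43e-05), a call lost with median centring, so it was below control with both drugs. Snhg17, at 0.06 ± 0.03, and Dancr, at 0.23 ± 0.11, did not pass. From the Agilent processed signals, 4 of the 5 were higher. Those signals gave 10709 calls among all genes, 56.8% of them higher, against 10039 calls and 46.3% in the fit after loess.

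Protein-coding genes can also carry snoRNAs in their introns, and their spliced exons form a translated messenger RNA. The genes listed here were found by position alone, without strand, so a listed gene may lie opposite a snoRNA gene and not host it. Of 62 tested, 6 (9.7%) were higher and 7 (11.3%) lower with SQ1 (median 0.023), against 15.7% and 16.5% of all genes. With pravastatin, 43 (69.4%) were higher and 7 (11.3%) lower (median 0.20), against 30.9% and 35.8% of all genes. Ribosomal protein genes make up 24 of the 62 and other TOP genes 5. Among the 33 in neither group, 2 were higher and 7 lower with SQ1 (median 0), and 19 were higher and 6 lower with pravastatin (median 0.12). Eif5, a translation initiation factor, fell by 0.23 ± 0.05 with SQ1 (limma adjusted p = 0.00113), which did not pass with median centring or a random scan-day block. With pravastatin, Kansl2, a subunit of a histone acetyltransferase complex, rose by 0.50 ± 0.03 (limma adjusted p = 9.53e-10). Srr, the serine racemase gene, was 2.25-fold lower (-1.17 ± 0.11, limma adjusted p = 5.41e-08). Whether Srr lies on the strand of the snoRNA gene within its span was not checked. Eif4a2, an RNA helicase of translation initiation, fell with both drugs, by 0.23 ± 0.07 with SQ1 and by 0.49 ± 0.07 with pravastatin. The SQ1 call of Eif4a2 was lost with median centring and with a random slide or scan-day block. Over the 62 genes the SQ1 counts were 2 higher and 0 lower with median centring, and 2 and 2 with a random slide block.

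Ribosomal protein messenger RNAs begin with a TOP tract, as many host RNAs of this kind do. With SQ1, the array medians of 79 cytosolic ribosomal protein genes averaged 0.030 on slide 1 and 0.033 on slide 2. Of these genes, 9 (11.4%, against 15.7% of all genes) were higher and 0 lower, with a median of 0.029. That count was 0 with median centring and with a random slide or scan-day block, 4 without SQ1 replicate 1 and 5 without SQ1 replicate 5. With pravastatin, 69 of 79 were higher and 1 lower, with a median of 0.20. Their array medians averaged 0.18 on slide 3 and 0.20 on slide 4. Rps20, a protein of the small ribosomal subunit, rose 1.27-fold (0.34 ± 0.03, limma adjusted p = 6.77e-09). Rpl10 fell by 0.16 ± 0.05 with pravastatin, and with median centring stood at 0.083. That call was also lost with a random slide or scan-day block. The difference, SQ1 minus pravastatin, passed as lower for 52 of 79 (65.8%), against 23.8% of all genes. With median centring it was 7 of 79. That setting called 3697 of all genes for the difference in place of 7990, and 59.1% of the 3697 were higher.

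Other TOP messenger RNAs are mostly those of translation factors. With SQ1, 6 of 18 were higher and 1 lower (median 0.058), led by Eif4b, an initiation factor that stimulates the Eif4a helicase (0.21 ± 0.03, limma adjusted p = 6.71e-05), and Tpt1, the translationally controlled tumour protein (0.18 ± 0.04, limma adjusted p = 0.00295). The count higher was 1 with a random scan-day block and 2 with a random slide block, and the Tpt1 call was lost with either. The member that was lower, Nap1l1, was at -0.09 ± 0.03, and at 0.045 with median centring. It no longer passed with the replicate number as a block, nor in 7 other settings. With pravastatin, 12 of 18 were higher and 0 lower (median 0.24). Hnrnpa1, an RNA-binding protein, rose by 0.53 ± 0.06 (limma adjusted p = 3.89e-07) and Ipo7, an import receptor for ribosomal proteins, by 0.49 ± 0.07 (limma adjusted p = 4.47e-06).

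**Figure D3:**
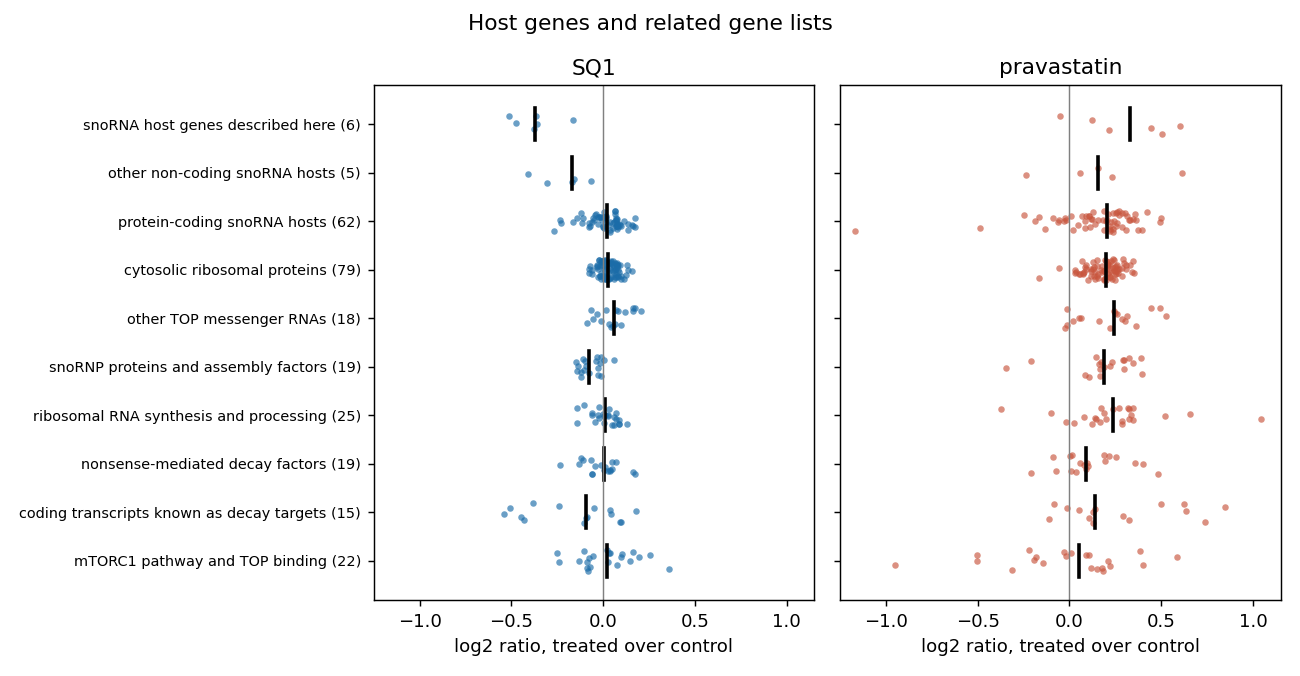
Log2 ratio of treated over control RNA (x axis) for each tested gene of the host set and of 9 related lists (rows, number of genes in brackets), with SQ1 in the left panel and pravastatin in the right. Points are genes and black bars are list medians; with SQ1 the host set has a median of -0.37 and the ribosomal proteins 0.029, and with pravastatin these are 0.33 and 0.20.

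A further list holds the proteins that bind snoRNAs and assemble them into particles. Of its 19 genes, 6 were lower and 0 higher with SQ1 (median -0.076). Nop56, a core box C/D protein, fell by 0.14 ± 0.04 (limma adjusted p = 0.00932) and Gar1, a core box H/ACA protein, by 0.14 ± 0.04 (limma adjusted p = 0.0243). Neither call held with median centring or a random slide or scan-day block, where the list count was 0, 1 and 1, and it was 3 without SQ1 replicate 6. The Gar1 call was also lost without SQ1 replicate 6 or 8. With pravastatin, 17 of 19 were higher and 2 lower (median 0.19). Nop56 rose by 0.40 ± 0.04 (limma adjusted p = 1.28e-07) and Dkc1, the pseudouridine synthase of H/ACA particles, by 0.39 ± 0.03 (limma adjusted p = 5.7e-08). The assembly factors Nufip1 and Pih1d1 fell, Nufip1 by 0.34 ± 0.08 and Pih1d1 by 0.21 ± 0.04, and the Pih1d1 call was lost with median centring.

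Ribosomal RNA synthesis and processing is the process that snoRNAs serve. With SQ1, 1 of 25 genes was higher (Rrn3, 0.13 ± 0.03) and 3 were lower, Ubtf and Nip7 by 0.14 ± 0.03 each, with a median of 0.01. Of the list, 4% was thus higher and 12% lower, against 15.7% and 16.5% of all genes. With median centring 0 were called and Ubtf stood at 0.003. The Rrn3 call was also lost with a random slide or scan-day block, and the Nip7 call with a random scan-day block. With pravastatin, 21 of 25 were higher and 2 lower (median 0.23). Myc, a transcription factor that drives ribosome synthesis, was 2.07-fold higher (1.05 ± 0.04, limma adjusted p = 6.59e-12) and Ddx21, a nucleolar helicase, 1.58-fold higher (0.66 ± 0.04, limma adjusted p = 8.06e-10). Ubtf, a factor of RNA polymerase I, fell by 0.38 ± 0.03 (limma adjusted p = 1.69e-08), a call lost with median centring. Pes1 fell by 0.10 ± 0.04 and stood above control, at 0.033 with median centring and 0.08 as the mean of all its probes. Its call as lower held in 16 of the 26 other settings, and not with a random slide or scan-day block, the Agilent signals, the series table or separate fits of the drugs, nor without pravastatin replicate 4, 7 or 8. The count lower was 1 without pravastatin replicate 4, 7 or 8.

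Nonsense-mediated decay is the pathway known to limit the spliced host RNAs. Of 19 decay factors, 1 (5.3%) was higher and 4 (21.1%) lower with SQ1 (median 0.004), against 15.7% and 16.5% of all genes. With pravastatin, 10 (52.6%) were higher and 1 (5.3%) lower (median 0.089), against 30.9% and 35.8% of all genes. Pnrc2, an adaptor to decapping, fell with both drugs, by 0.23 ± 0.05 with SQ1 (limma adjusted p = 0.00313) and by 0.21 ± 0.05 with pravastatin (limma adjusted p = 0.0026), and both calls were lost with median centring. Etf1, a translation release factor, rose by 0.16 ± 0.05 with SQ1, a call lost with a random slide or scan-day block. Upf3b fell by 0.13 ± 0.04 with SQ1, a call lost in 5 of the 26 settings. Smg1, the kinase that phosphorylates Upf1, rose by 0.48 ± 0.09 with pravastatin (limma adjusted p = 0.000225) and Smg8, its regulator, by 0.40 ± 0.05 (limma adjusted p = 1.06e-06). The count lower with SQ1 was 2 without SQ1 replicate 6 or 7 and 0 with median centring.

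Coding transcripts known as targets of this decay include many genes of the integrated stress response. With SQ1, 5 of 15 were lower and 2 higher (median -0.092), and with median centring 1 was lower and 0 higher. Ddit3, a stress-induced transcription factor, was 1.45-fold lower (-0.54 ± 0.14, limma adjusted p = 0.00836) and Chac1, a glutathione-degrading enzyme, 1.42-fold lower (-0.51 ± 0.15, limma adjusted p = 0.0192). The Chac1 call was lost with median centring, with a random slide block and without SQ1 replicate 1 or 2, and that of Ddit3 with median centring. Cdkn1a, an inhibitor of cyclin-dependent kinases, rose by 0.18 ± 0.03 and Hnrnpl, an RNA-binding protein, by 0.10 ± 0.03 with SQ1. The call of Hnrnpl was lost in 9 of the 26 settings, among them the replicate number as a block, and that of Cdkn1a with median centring. With pravastatin, 11 of 15 were higher and 0 lower (median 0.14), with Ddit3 1.80-fold higher (0.85 ± 0.14, limma adjusted p = 6.27e-05) and Trib3, a pseudokinase of the same response, 1.67-fold higher (0.74 ± 0.11, limma adjusted p = 2.34e-05).

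The mTORC1 pathway controls translation of TOP transcripts. With SQ1, 5 of its 22 genes were higher and 0 lower (median 0.023), among them the GTPase genes Rragc (0.26 ± 0.03, limma adjusted p = 1.01e-05) and Rragd (0.36 ± 0.10, limma adjusted p = 0.0102), which recruit mTORC1 to lysosomes. The Rragd call was lost with a random slide or scan-day block, where the count higher was 2 and 1. The SQ1 share higher was 22.7%, against 15.7% of all genes. With pravastatin, 10 (45.5%) were higher and 7 (31.8%) lower (median 0.05), against 30.9% and 35.8% of all genes. With median centring 3 were lower with pravastatin. Eif4ebp1, a translation repressor that mTORC1 inactivates, rose by 0.58 ± 0.04 (limma adjusted p = 8.35e-09), and Tsc1, an inhibitor of the pathway, rose by 0.40 ± 0.08 (limma adjusted p = 0.00032). Deptor, an inhibitory subunit of mTOR complexes, was 1.93-fold lower (-0.95 ± 0.08, limma adjusted p = 4.07e-08), and Sesn1 fell by 0.51 ± 0.05 (limma adjusted p = 3.81e-07). The arrays measured transcripts and say nothing of mTORC1 activity.

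Markers of the cell types a hepatocyte culture can hold are given beside the hosts, and their counts can be set against the all-gene shares of 15.7% higher and 16.5% lower with SQ1, and 30.9% and 35.8% with pravastatin. All 12 hepatocyte markers were measured, with 7 lower with SQ1 (median -0.27) and 12 lower with pravastatin (median -1.40), and 0 higher with either. Fgg, a fibrinogen chain, was 2.13-fold lower with SQ1 and 6.35-fold lower with pravastatin. The array medians of these markers averaged -0.47 on slide 1, -0.14 on slide 2, -1.49 on slide 3 and -1.29 on slide 4. Of Kupffer cell markers, 11 of 12 were measured, and 5 were lower with SQ1 (median -0.12) and 9 with pravastatin (median -0.62), with 0 higher. Endothelial markers were higher for 5 of 11 and lower for 0 with SQ1 (median 0.15), and higher for 4 and lower for 5 with pravastatin (median -0.031). Stellate cell and fibroblast markers had 2 of 12 higher and 2 lower with SQ1 (median -0.048) and 1 higher and 4 lower with pravastatin (median -0.10). Cholangiocyte markers had 1 of 9 higher and 3 lower with SQ1 (median -0.008) and 2 higher and 4 lower with pravastatin (median -0.19). Genes listed as markers of all these cell types thus passed the filter for signal above background in a culture labelled as hepatocytes. Whether the cells themselves were present, and their part in the host values, was not tested.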

How the data were processed

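The members and gene lists were chosen with earlier results of these data known. The deposited scanner files give, for both dyes, unnormalized median intensity of spot and local background, per the file headers. They also hold Agilent Feature Extraction 11.0.1.1 processed intensities and a log10 ratio made from them, per the file headers. One log2 value per probe and array stands in the deposited series table, and it correlated with the Agilent treated-over-control ratio at 0.742 to 0.999 per array; its centring is not stated.

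Intensities were corrected by normexp (offset 50) and normalized within arrays by loess in R 4.3.3 with limma 3.58.1. Control spots had weight 0, and outlier spots (0.628% of the others) were left out. Probes were named by RefSeq accession, 27234 of 39429. A probe was tested if well above background in at least 4 treated channels of 1 drug or 8 control channels, and measured as a ratio on 7 or more of the 8 arrays of both drugs. The brightest probe stood for a gene.

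Treated-over-control log2 ratios were fitted over 16 arrays with limma and a dye term per gene, leaving 13 residual degrees of freedom, and p-values were two-sided and adjusted by Benjamini-Hochberg over 15049 genes. The fit was also run on simulated data with independent noise between arrays. That run cannot speak for spread shared within slides or replicate numbers, and no value from it is used here. Same-numbered arrays of the drugs deviated together (r = 0.22 to 0.718 over genes). Every pair was above 0.1, by which the numbers were taken to pair the samples. Only 3 of 8 SQ1 arrays correlated best with the pravastatin array of their own number. These values therefore cannot show that the numbers mark shared cultures. The plan required protein-coding hosts to share the strand of their snoRNA gene, but the table used gives no strand, and position alone was used.

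In each list and for each drug, up to 2 genes with the largest rise and 2 with the largest fall past the threshold could be named, with all 9 hosts and the 8 genes most like them. One gene that this rule names is not reported here. The 5 non-coding hosts outside the set are all named, some chosen after their values were seen. The alternatives changed the normalization, background correction, source of values, filter, probe choice, blocks, arrays and threshold.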

Additional observations from a re-analysis of the deposited data

Results flagged for a closer look

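Among 112 groups of 8 arrays looked at, 2 held an array that stood apart from the other 7 by more than Dixon's 95% limit, and chance alone gives about 1 such group in 20. With SQ1, Snhg7 had a log2 ratio of 0.324 on replicate 2, while the other 7 arrays lay between -0.662 and -0.302. With pravastatin, Kansl2 had a log2 ratio of 0.326 on replicate 8, while the other 7 arrays lay between 0.48 and 0.619.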

How the results depend on the processing

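The median log2 ratio of the 6 hosts kept its sign and moved by less than the SD between arrays under every alternative run. Over fits without 1 array it ran from -0.427 to -0.36 for SQ1, from 0.29 to 0.378 for pravastatin and from -0.804 to -0.717 for SQ1 minus pravastatin. Of 468 host values under the alternatives, 3 moved by more than that SD, all with median centring, and 3 changed sign, all for Snhg3 with pravastatin. Genes called for SQ1 numbered 4858, against 2072 with median centring, 2538 with a random slide block, 2238 with a random scan-day block, and 3117 at an adjusted p of 0.01. List genes called for SQ1 numbered 54, against 11, 18, 15 and 28 under the same settings. For SQ1 minus pravastatin, median centring gave 3697 genes in place of 7990 and 51 list genes in place of 151. Without 1 array at a time, genes called ran from 4050 to 5103 for SQ1, from 9609 to 10044 for pravastatin and from 7479 to 8272 for the difference. Of 2080 values for the 80 named list results, 140 lost the call and 5 changed sign: with median centring Nap1l1 (0.045) and Ubtf (0.003) for SQ1 and Rpl10 (0.083) and Pes1 (0.033) for pravastatin, and Pes1 also as the mean of all probes (0.08). With the replicate number as a random block (pairing the arrays), 4723 genes were called for SQ1, 9868 for pravastatin and 9619 for SQ1 minus pravastatin, and with a fixed replicate block 9409 for the difference; the block changed none of these totals by over 1.5 times and no count of hosts past the threshold. Among named list genes of the pathways it ended the SQ1 calls of Nap1l1 and Hnrnpl and no other. Leaving out 1 array moved list counts of 0, 1 or 2 genes by at most 2. A fixed replicate block gives no value for 1 drug alone, and separate fits of the drugs give none for their difference. Probes near background and the number of arrays limit what can be seen.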
